A study of Mus musculus with 4 samples.

Results

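Cyclic nucleotide phosphodiesterases were examined in subcutaneous white fat of mice, through 10 genes taken by symbol from a table of 21899 rows of protein-coding genes. The genes were Pde3a, Pde3b, Pde4a, Pde4b, Pde4d, Pde7a, Pde7b, Pde8a, Pde2a and Pde1b, with 1 row each, out of 24 genes of the family in the table. The study profiled 2 groups by RNA sequencing, with 2 libraries in a group labelled as receiving an inhibitor of miR-203 and 2 libraries in a group labelled as negative control. RNA from 3 animals was pooled for each library, so the spread between libraries is a spread between pools. Neither the labels nor the series text state strain, age, sex, dose, route or duration. The title of the series sets miR-203 between cyclic AMP (cAMP) and interferon gamma in the browning of subcutaneous fat. MicroRNA levels were not analysed here.

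Phosphodiesterases hydrolyse the second messengers cAMP and cyclic GMP (cGMP) and so end the signals that adenylyl and guanylyl cyclases start. In adipocytes, cAMP made after beta adrenergic stimulation activates protein kinase A, which drives lipolysis and the thermogenic program. Insulin opposes lipolysis in part by activating PDE3B. The families differ in substrate and control: PDE4, PDE7 and PDE8 act on cAMP, whereas PDE1, PDE2 and PDE3 act on both nucleotides.

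Because the treatment targets a microRNA, the sequences that could pair with it are shown first. A microRNA recognises messenger RNAs mainly through its seed, bases 2 to 8, which pair with a complementary stretch in the 3' untranslated region. The mature strand was read from RefSeq (GRCm38.p6, chr12:112130927-112130948, plus strand), and its seed is in capitals.
mmu-miR-203-3p: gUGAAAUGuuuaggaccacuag

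The DNA match to the seed, CATTTCA, was searched on the transcript strand in 1 annotated 3' untranslated region per gene, the longest. It occurred in 3 of the 10 genes, with 4 matches, or 0.144 matches per 1000 bases, against 0.130 per 1000 bases over the 12205 tested rows with a searchable region. At least 1 match was present in 16.8% of those rows. Each match is shown with 11 bases on either side where available, in the sense of the transcript, with the seed match in capitals. The Pde3a windows lie at chr6:141499370-141499398 and chr6:141503044-141503072 on the plus strand, the Pde4d window at chr13:109952625-109952653 on the plus strand and the Pde7a window at chr3:19225321-19225349 on the minus strand, all in GRCm38.
Pde3a first match: cgaggggtgagCATTTCAgaacatggttg
Pde3a second match: aaacagttcacCATTTCAagtagaagaga
Pde4d match: agtcacccgaaCATTTCAccatcatttta
Pde7a match: tatactagcctCATTTCAagtggtcaccc

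The second Pde3a match and the Pde7a match are followed by an A, a base that favours recognition of a seed match. Pde3b, Pde4a, Pde4b, Pde7b, Pde8a, Pde2a and Pde1b had no match in the region searched. A match describes letters only, and binding of miR-203 at these positions was not measured.

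Rows above 0 numbered 15373 to 15587 per library, and depth relative to control 1, from the commonest ratio of low values, was 0.927 and 0.901 in inhibitor 1 and inhibitor 2 and 1.06 in control 2. Values are FPKM (fragments scaled to transcript length and to library size), so levels can be set beside each other between genes, but the absolute depth is unknown. Adipocyte markers were all present, with Adipoq at 1095 and 996.6 FPKM in the inhibitor libraries and 1255 and 1303 FPKM in the controls. Epithelial and mammary markers summed to between 0.724 and 2.25 FPKM, with 3 of 8 at 0 in every library. Control 2 stood apart in B cell and lymph node markers: the 12 genes summed to 215.9 and 259.4 FPKM in the inhibitor libraries, 439.6 in control 1 and 19.5 in control 2. None of these 12 was at 0 in all 4 libraries. Genes of mitochondrial DNA made up 10.2% and 12.1% of summed FPKM in the inhibitor libraries, against 14.4% and 17.5% in the controls, so the groups did not overlap. With FPKM rescaled to a total without these genes, none of the 10 phosphodiesterase genes was called.

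Levels spread over a wide range, and Pde3b, then Pde2a, came first and Pde3a last in every library. Pde3b was the most abundant of the 10, with 55.7 and 52.7 FPKM in inhibitor libraries 1 and 2, against 50.003 and 67.1 FPKM in controls 1 and 2. Pde2a followed at a mean of 32.7 FPKM over the 4 libraries and Pde8a at 14.2 FPKM, and the ranges of these 3 genes did not overlap with each other. Pde8a exceeded every lower gene in every library but 1, inhibitor 1, where Pde7a was above it. From Pde1b down to Pde4a, each gene overlapped in range with its neighbour in the order: Pde1b at a mean of 9.72, Pde7a at 9.58, Pde7b at 6.77, Pde4b at 5.86, Pde4d at 5.54 and Pde4a at 5.13 FPKM. Pde3a came last at 0.949 FPKM, with a range apart from all the others. By mean level Pde3b lay at percentile 87.1 of the 12345 rows that passed the filter of a mean of at least 1 FPKM, and Pde4a at percentile 26.4.

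**Figure D1:**
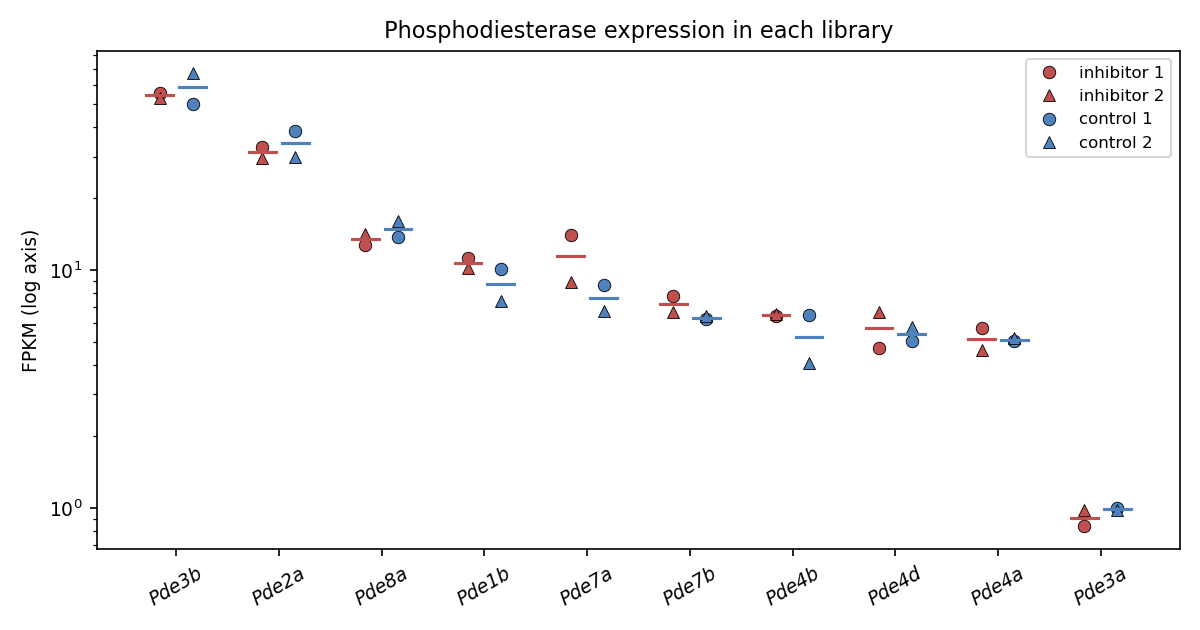
FPKM on a log axis of the 10 phosphodiesterase genes in the inhibitor libraries (red) and the controls (blue), with circles for library 1, triangles for library 2 and bars for group means. Pde3b sits between 50.003 and 67.1 FPKM, Pde3a between 0.836 and 0.999 FPKM, and the 2 groups lie close together for most genes.

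None of the 10 genes was called different between inhibitor and control tissue. Limma's moderated test with Benjamini-Hochberg adjustment over all genes gave 0 of the 9 tested genes an adjusted p under 0.05, and 0 of 9 had an unadjusted p under 0.05. Pde3a, under the filter, was not tested. Over all 12345 rows 3.48% were called, 3.22% higher and 0.267% lower, and 19.3% had an unadjusted p under 0.05. The smallest adjusted p among the 9 was 0.332. A share of 0 of 9 is near the 3.48% background and sets these genes apart in no way. The median log2 fold change of all 10 was 0.03, and that of the 9 tested was 0.05, beside 0.07 over all rows tested. All fold changes are inhibitor over control, computed from log2(FPKM + 1), a form that shrinks changes of low genes.

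The intervals show what sizes of change the 4 libraries left possible. The 95% intervals of 8 of the 9 tested genes lay inside 0.5-fold to 2-fold, and that of Pde7a reached 2.16-fold. These are folds of FPKM + 1, a form that shrinks changes of low genes. Over the 9 genes the lowest bound was 0.714-fold.

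**Figure D2:**
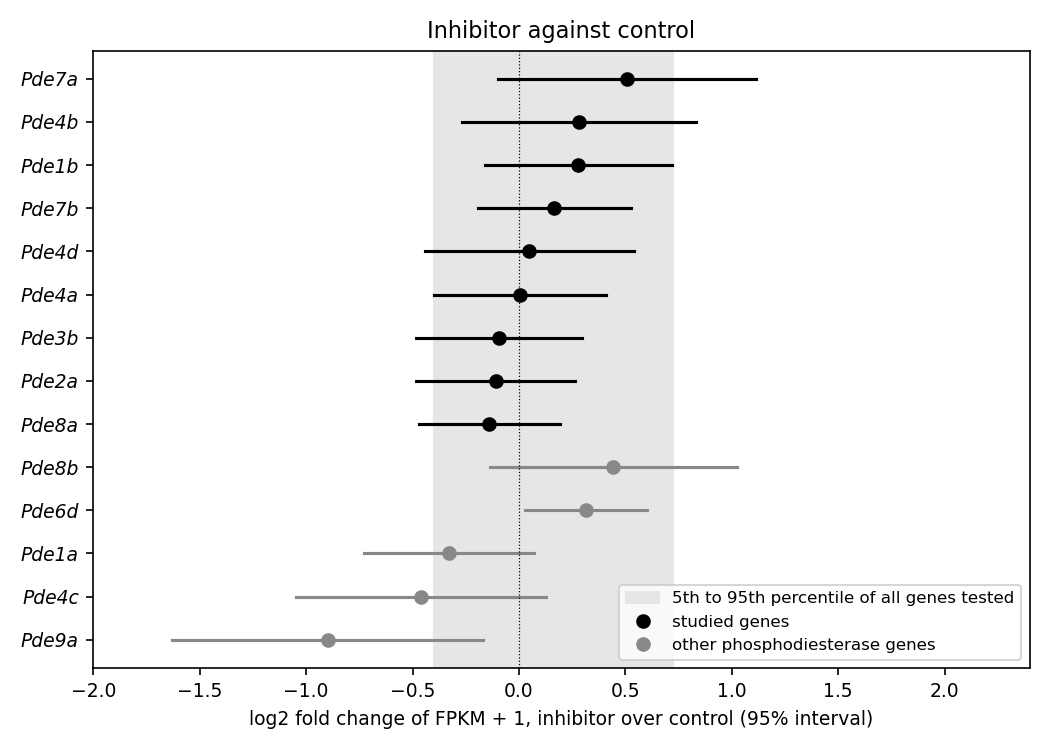
Log2 fold change of FPKM + 1, inhibitor over control, with 95% intervals from limma, for the 9 studied genes tested (black) and 5 other phosphodiesterase genes (grey). Shading spans the 5th to 95th percentile of all genes tested, from -0.40 to 0.72, and every black interval crosses 0.

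Pde3b (ENSMUSG00000030671, chromosome 7 at 114415281 to 114539251, plus strand) encodes the adipocyte enzyme through which insulin lowers cAMP. Its level averaged 54.2 ± 2.097 FPKM in inhibitor tissue and 58.6 ± 12.1 FPKM in control tissue (SD, n = 2 each). The groups overlapped, since both inhibitor values lay between those of control 1 and control 2. The log2 fold change was -0.09 ± 0.15 (SE), with a 95% interval of -0.49 to 0.30 (limma adjusted p = 0.779). Its sign turned to 0.11 without control 2 and it was -0.30 without control 1, with no call in either case. The 10 adipocyte markers summed to 22403 and 20954 FPKM in the inhibitor libraries and 25830 and 27294 FPKM in the controls, with none at 0 in all libraries. Of these 10, 9 were lower in both inhibitor libraries than in both controls, beside 19.1% of all rows. By limma 0 of the 10 were called, with 7 at an unadjusted p under 0.05, beside 19.3% of all rows. In bulk tissue fewer cells of a type and less RNA per cell cannot be told apart. Set against Adipoq within each library, the ratio of Pde3b was 0.0509 and 0.0529 in the inhibitor libraries and 0.0398 and 0.0515 in the controls, again overlapping.

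Pde3a (ENSMUSG00000041741, chromosome 6 at 141249269 to 141507448, plus strand), the relative of Pde3b best known from heart, platelets and vascular smooth muscle, had 0.836 and 0.983 FPKM in inhibitor libraries 1 and 2 and 0.999 and 0.979 FPKM in controls 1 and 2. The groups overlapped, and the untested log2 difference was -0.06. Within each library Pde3b was between 50.1 and 68.5 times as abundant as Pde3a per length of transcript. The 10 smooth muscle and pericyte markers, none at 0 in all libraries, summed to 190.3 and 168.4 FPKM in the inhibitor libraries and 207.3 and 208.5 FPKM in the controls, and their part in the Pde3a values was not tested.

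The PDE4 genes encode cAMP-specific enzymes that are bound to receptors, arrestins and anchoring proteins and are themselves activated by protein kinase A. Pde4a (ENSMUSG00000032177, chromosome 9 at 21165714 to 21213248, plus strand) had 5.70 and 4.61 FPKM in inhibitor libraries 1 and 2, against 5.04 and 5.16 FPKM in controls 1 and 2. Both control values lay inside the range of the inhibitor values, and the log2 fold change was 0.01 (95% interval -0.40 to 0.41, limma adjusted p = 0.988). Pde4d (ENSMUSG00000021699, chromosome 13 at 108449948 to 109953461, plus strand), the form known to bind beta arrestins, had 4.72 and 6.64 FPKM in the inhibitor libraries, against 5.04 and 5.76 FPKM in the controls. Here too the controls lay inside the inhibitor range, with a log2 fold change of 0.05 (95% interval -0.44 to 0.54, adjusted p = 0.915). The signs of Pde4a and Pde4d turned negative under quantile normalization and upper quartile scaling, so no direction can be given for either.

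Pde4b (ENSMUSG00000028525, chromosome 4 at 102087543 to 102607259, plus strand), a form prominent in leukocytes and needed for the full tumour necrosis factor response of mouse macrophages to endotoxin, had 6.42 and 6.50 FPKM in inhibitor libraries 1 and 2, against 6.44 and 4.06 FPKM in controls 1 and 2. Control 2 alone was low, and control 1 lay between the inhibitor libraries. The log2 fold change was 0.28 ± 0.22 (SE; 95% interval -0.27 to 0.83, limma adjusted p = 0.531). Without control 2 it was 0.0043, and without control 1 it was 0.56, with no call in either case. Control 2 was also the library low in the B cell and lymph node markers given above, and their part in the Pde4b values was not tested. The 4 PDE4 genes together, Pde4c included, summed to 17.8 and 18.3 FPKM in the inhibitor libraries and 17.8 and 16.5 FPKM in the controls.

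The annotation gives Pde4d 12 and Pde4b 9 coding transcripts, against 3 for Pde4a. Long and short PDE4 forms differ in whether they carry the conserved regulatory regions, and the gene totals do not separate them.

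Pde7a had the largest fold change of the 10. Its gene (ENSMUSG00000069094, chromosome 3 at 19223108 to 19311322, minus strand) encodes a high-affinity cAMP enzyme known from T cells. It had 14.0 and 8.94 FPKM in inhibitor libraries 1 and 2, against 8.61 and 6.71 FPKM in controls 1 and 2. Inhibitor 1 stood above the other 3 libraries, while inhibitor 2 exceeded control 1 by a narrow margin, so the groups did not overlap. The log2 fold change was 0.51 ± 0.24 (SE; 95% interval -0.10 to 1.11, limma adjusted p = 0.332). It was 0.21 without inhibitor 1 and 0.81 without inhibitor 2, with no call in either case. The 13 T and NK cell markers in the table summed to 240.6 and 289.1 FPKM in the inhibitor libraries and 151.2 and 85.5 FPKM in the controls, with none at 0 in all libraries. Of these 13, 2 were called higher and 6 had both inhibitor values above both controls, beside 3.22% and 33.1% of all rows. The 2 called were Gzmb and Gzma, and the others above both controls were Nkg7, Ncr1, Klrd1 and Lck. The T cell receptor and co-receptor genes Cd3d, Cd3e, Cd3g, Cd247, Cd4, Cd8a and Cd8b1 overlapped between the groups, and each was lowest in control 2. The sum of the 13 markers was highest in inhibitor 2, and Pde7a was highest in inhibitor 1. Both were lowest in control 2 and next lowest in control 1. The part of T and NK cells in the Pde7a values was not tested.

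Pde7b (ENSMUSG00000019990, chromosome 10 at 20398004 to 20725078, minus strand), the PDE7 gene best known from brain, had 7.77 and 6.68 FPKM in inhibitor libraries 1 and 2, against 6.22 and 6.40 FPKM in controls 1 and 2. The groups did not overlap, but the gap between inhibitor 2 and control 2 was small, and the log2 fold change was 0.17 (95% interval -0.19 to 0.53, limma adjusted p = 0.575). The ratio of Pde7a to Pde7b within a library was 1.81 and 1.34 in the inhibitor libraries and 1.38 and 1.05 in the controls.

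Pde8a (ENSMUSG00000025584, chromosome 7 at 81213596 to 81334533, plus strand) encodes a cAMP enzyme of very high affinity that the general inhibitor IBMX does not block. It had 12.7 and 14.2 FPKM in inhibitor libraries 1 and 2, against 13.8 and 16.05 FPKM in controls 1 and 2. The groups overlapped, and the log2 fold change was -0.14 (95% interval -0.47 to 0.19, limma adjusted p = 0.615). It was -0.24 without control 1, -0.037 without control 2, -0.21 without inhibitor 2 and -0.066 without inhibitor 1, with no call.

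Among the enzymes with both substrates, Pde2a is activated by cGMP and so couples the cGMP signal to the breakdown of cAMP. It had 32.9 and 29.7 FPKM in inhibitor libraries 1 and 2, against 38.4 and 29.8 FPKM in controls 1 and 2. Inhibitor 2 and control 2 were nearly equal and control 1 was high, with a log2 fold change of -0.11 (95% interval -0.48 to 0.27, limma adjusted p = 0.731). The sign turned to 0.07 without control 1. Endothelium is a known site of PDE2A, and the 10 endothelial markers, none at 0 in all libraries, summed to 409.8 and 392.3 FPKM in the inhibitor libraries and 451.9 and 444.5 FPKM in the controls. Control 1 was the highest library for both, and the part of endothelium in the Pde2a values was not tested. The identifier of the Pde2a row, ENSMUSG00000030653, belongs in GENCODE M21 to Gm45837, a coding gene on chromosome 7 at 101410886 to 101512819 that overlaps Pde2a (101421691 to 101512827) on the same strand. Fragments of the 2 cannot be told apart by strand, so the Pde2a value is uncertain to that extent.

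Pde1b (ENSMUSG00000022489, chromosome 15 at 103503034 to 103530052, plus strand), which calcium and calmodulin activate, had 11.2 and 10.2 FPKM in inhibitor libraries 1 and 2, against 10.1 and 7.41 FPKM in controls 1 and 2. The groups did not overlap, but inhibitor 2 lay just above control 1, and control 2 was low. The log2 fold change was 0.28 ± 0.17 (SE; 95% interval -0.16 to 0.72, limma adjusted p = 0.437), and 0.08 without control 2 and 0.48 without control 1, again with no call. The 12 macrophage markers, none at 0 in all libraries, summed to 2703 and 2541 FPKM in the inhibitor libraries and 2222 and 2400 FPKM in the controls. Of these 12, 2 were called higher, 7 had both inhibitor values above both controls and 3 had both below (Mrc1, Lyz2 and Csf1r, with log2 fold changes of -0.39, -0.23 and -0.18). Over all rows these shares were 3.22%, 33.1% and 19.1% in the same order. Pde1b and the macrophage sum were both highest in inhibitor 1 and next highest in inhibitor 2. Between the controls, the macrophage sum was higher in control 2 and Pde1b was higher in control 1. Control 2 was also the library low in the B cell and lymph node markers given above. The part of macrophages, B cells or lymph node in the Pde1b values was not tested.

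Pde7a, Pde7b and Pde1b were thus the 3 of 9 tested genes whose inhibitor libraries both exceeded both controls, and 0 of 9 had both below. Over all rows tested 33.1% were separated upward and 19.1% downward, so the count of 3 is near the background.

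The balance between the genes was then described as shares of the FPKM summed over the 21 family genes that encode catalytic subunits. The sum was 176.3 and 166.8 FPKM in inhibitor libraries 1 and 2, against 175.0 and 184.5 FPKM in controls 1 and 2. The 10 studied genes made up 86.2% and 84.7% of it in the inhibitor libraries and 82.7% and 80.97% in the controls. Pde3b alone was 31.6% in each inhibitor library, 28.6% in control 1 and 36.4% in control 2. Genes for cAMP-specific enzymes held 30.5% and 29.8% of the sum in the inhibitor libraries and 27.2% and 25.1% in the controls, a separation to which Pde7a contributed 7.97% and 5.36% of the sum in inhibitor tissue and 4.92% and 3.63% in control tissue. Genes for cGMP-specific enzymes held 1.21% and 2.31% in the inhibitor libraries and 3.36% and 3.01% in the controls. Most of this was Pde9a, at 0.748% and 1.80% of the sum in the inhibitor libraries and 2.78% and 2.43% in the controls. Genes for enzymes with both substrates held 68.2% and 67.9% in the inhibitor libraries and 69.5% and 71.9% in the controls. The 3 shares add up to the whole sum, so they are not independent. With 2 libraries a group an exact two-sided permutation test cannot give less than p = 0.333, which is the value for each of these 3 shares. Transcript shares do not measure enzyme activity.

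**Figure D3:**
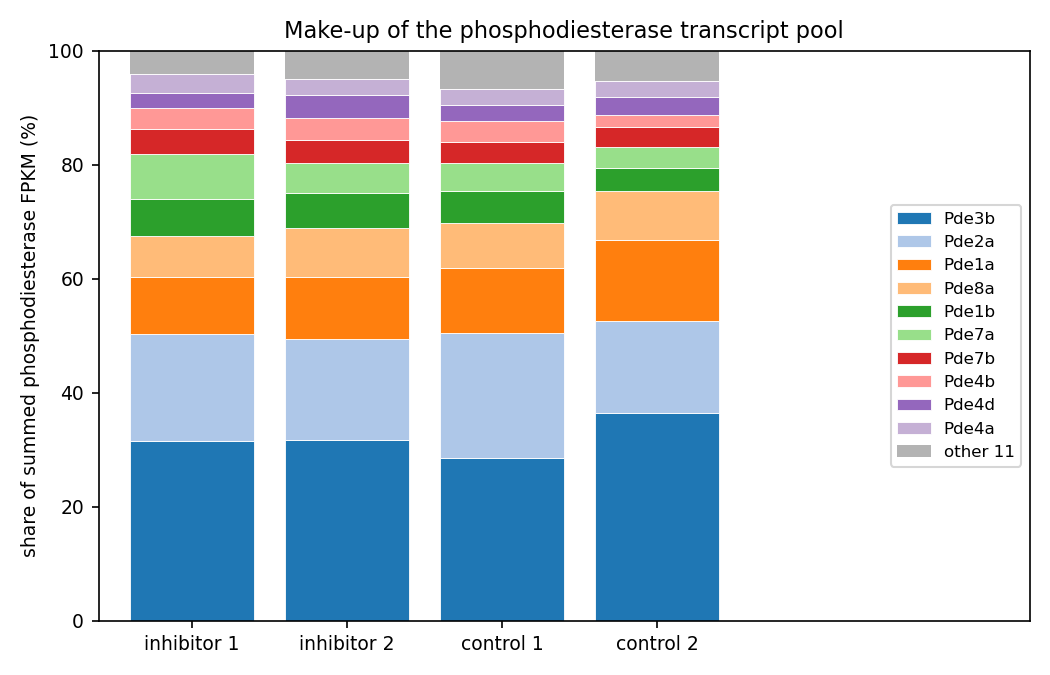
Share, in percent, of the FPKM summed over 21 catalytic phosphodiesterase genes in each library, for the 10 genes with the highest mean share and the other 11 together. Pde3b takes 28.6% to 36.4%, and Pde3b with Pde2a takes about the same part of every bar.

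The rest of the family held Pde1a, a calcium-stimulated enzyme, as its most abundant gene. Pde1a had 17.7 and 18.2 FPKM in the inhibitor libraries and 19.7 and 26.3 FPKM in the controls (log2 fold change -0.33, limma adjusted p = 0.337). It was -0.53 without control 1 and -0.13 without control 2, with no call in either case. Of the 14 other genes 5 were tested and 0 were called. Beside 19.3% of all rows, 2 of these 5 had an unadjusted p under 0.05 by limma. The first of those was Pde9a, a high-affinity cGMP-specific enzyme, with 1.32 and 3.00 FPKM in inhibitor libraries 1 and 2, against 4.86 and 4.49 FPKM in controls 1 and 2. Its groups did not overlap, inhibitor 1 being the lowest library, and its log2 fold change was -0.90 ± 0.29 (SE; 95% interval -1.63 to -0.17, limma adjusted p = 0.185), or -0.51 without inhibitor 1. The second was Pde6d, which encodes a carrier of prenylated proteins rather than a catalytic subunit, with 17.2 and 16.6 FPKM in the inhibitor libraries and 14.1 and 12.8 FPKM in the controls (log2 fold change 0.31, adjusted p = 0.224). Pde4c and Pde8b, near 1 FPKM, had log2 fold changes of -0.46 and 0.44 (adjusted p = 0.356 and 0.366). The remaining 9, including the photoreceptor genes Pde6a, Pde6b and Pde6c, were below the filter.

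Around the phosphodiesterases, the genes that make cAMP gave 1 call among 25 tested, and it was lower. Over all rows 3.48% were called, 0.267% lower. Adcy3, an adenylyl cyclase of adipocytes, fell to 23.5 and 27.2 FPKM in the inhibitor libraries, against 42.7 and 42.3 FPKM in the controls (log2 fold change -0.73 ± 0.11, SE, limma adjusted p = 0.0346). Without control 2 its adjusted p was 0.0634, with no filter 0.0773 and with no trend 0.0829, and fits without inhibitor 1 or inhibitor 2 gave 0.201 and 0.194, where no gene at all was called. Ptger3, Adora1 and Adcy7 followed by p, with log2 fold changes of -0.69, -0.32 and 0.39 and no call. The list median was -0.06.

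Of 16 tested effectors of cAMP 0 were called by limma, with 1 at an unadjusted p under 0.05, beside 19.3% of all rows. That gene was Prkar2b, the regulatory subunit of protein kinase A that prevails in fat, at 228.5 and 215.9 FPKM in the inhibitor libraries and 268.8 and 290.4 FPKM in the controls (log2 fold change -0.33, adjusted p = 0.129). Prkaca, Crtc3 and Prkar2a, next in order of p, had -0.21, 0.31 and -0.20.

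Partners and anchors of phosphodiesterases gave 1 call among 23 tested, and it was higher. This share is near the 3.48% of all rows called, 3.22% higher. Arrb2, the beta arrestin 2 gene, whose product brings PDE4D to beta adrenergic receptors, rose to 88.0 and 97.0 FPKM in the inhibitor libraries, against 63.0 and 58.0 FPKM in the controls (log2 fold change 0.60 ± 0.10, SE, limma adjusted p = 0.0417). The call ended under quantile normalization (adjusted p = 0.0612), upper quartile scaling (0.0650), FPKM rescaled without genes of mitochondrial DNA (0.0557), no filter (0.0861) and no trend (0.114). It also ended without control 2 (0.0792), inhibitor 1 (0.185) or inhibitor 2 (0.328), and the fold change stayed positive in each. Xpo1 and Calm2, a gene for the calmodulin that activates PDE1, had log2 fold changes of 0.51 and 0.33 (adjusted p = 0.0652 and 0.130).

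**Figure D4:**
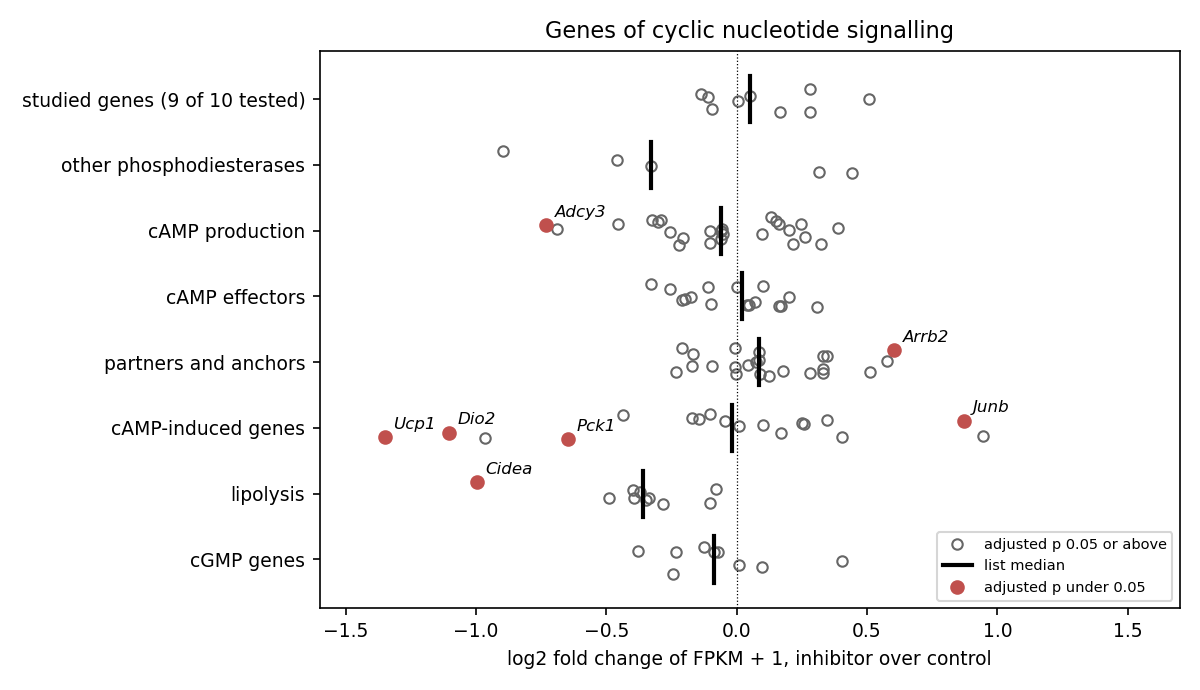
Log2 fold change of FPKM + 1, inhibitor over control, of each tested gene on 8 lists of cyclic nucleotide signalling, with filled points for an adjusted p under 0.05 and bars for list medians. The 9 studied genes lie between -0.14 and 0.51 with no filled point, whereas Ucp1 lies at -1.35 and Junb at 0.87.

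Among 18 tested genes known to be induced by cAMP, the median log2 fold change was -0.02. Of these 18, 3 were called lower and 1 higher, beside 0.267% and 3.22% of all rows. The genes called were Ucp1, Dio2 and Pck1 (log2 fold changes -1.35, -1.11 and -0.65) and the AP-1 gene Junb (0.87). All 10 lipolysis and lipid droplet genes had negative log2 fold changes, with a median of -0.36. On that list 9 were lower in both inhibitor libraries than in both controls, beside 19.1% of all rows. The 1 gene called lower was Cidea (-0.996), beside 0.267% of all rows. Mgll, Lipe and Plin1, the next by p, had -0.49, -0.40 and -0.35 and were not called. Calls on both lists ended without inhibitor 1 or inhibitor 2, and with no filter or no trend those of Dio2, Pck1 and Junb ended while Ucp1 and Cidea kept theirs. Mgll, a monoglyceride lipase, passed the threshold under quantile normalization, upper quartile scaling and FPKM rescaled without mitochondrial DNA genes (limma adjusted p = 0.0399, 0.0473 and 0.0462), and Lipe, hormone-sensitive lipase, under quantile normalization (0.0423). The list then had 3, 2 and 2 lower calls under these settings in that order. It shares Plin1, Cidec and Fabp4 with the adipocyte markers, whose sums are given above, and the part of adipocyte content in these values was not tested. Of the 10 brown and beige fat markers, which hold Ucp1, Dio2 and Cidea too, 6 were called lower and 9 were lower in both inhibitor libraries than in both controls, beside 0.267% and 19.1% of all rows. They summed to 735.1 and 671.1 FPKM in the inhibitor libraries and 1586 and 1473 FPKM in the controls, with a median log2 fold change of -1.05 and none at 0 in all libraries. The part of brown and beige adipocytes in the values of the cAMP-induced and lipolysis genes was not tested. Of 9 tested genes of cGMP production and response 0 were called. By limma 2 had an unadjusted p under 0.05, beside 19.3% of all rows, and these were Vasp (0.40) and Npr3 (-0.38). Nos3 (-0.24) and Npr2 (-0.23) came next.

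The 4 genes with the profile most like that of Pde7a, the studied gene with the smallest p, were Eapp, Gps2, Ppih and Wisp2. Likeness was the Euclidean distance between log2(FPKM + 1) values centred on each gene's mean over 4 libraries, among 7031 genes at least as abundant, and it was 0.0851, 0.114, 0.159 and 0.189. Their log2 fold changes were 0.44, 0.52, 0.37 and 0.60, and none was called. Fold changes like that of Pde7a follow from the way these genes were picked.

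Since the series concerns cAMP, promoters were read for the cAMP response element, the site bound by CREB. RefSeq windows of 300 bases, 250 before and 50 after a start, were at hand for 7 of the 10 genes, with 18 windows. The full element TGACGTCA, its own reverse complement, was in 0 of the 18 and in 1.79% of all 32851 windows. The shorter core TGACG, on either strand, was in 4 of the 18 windows, or 22.2%, against 20.8% of all windows. The 4 occurrences are shown with the core in capitals, in the sense of the gene, which is the plus strand of GRCm38.p6 for each. They lie at chr4:102421510-102421536, chr7:81213170-81213196, chr7:101450523-101450549 and chr9:21184040-21184066.
Pde4b: atttggctgcaCGTCAattttctcatc
Pde8a: ctgctttgcatTGACGccagcagccgc
Pde2a: gggcgcaggagCGTCAcggctgctgca
Pde4a: gcacagctcgaCGTCAggctggggagg

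These 4 genes had log2 fold changes of 0.28, -0.14, -0.11 and 0.01 in the order shown, none called. The 3 genes with a seed match to miR-203, Pde3a, Pde4d and Pde7a, had -0.06, 0.05 and 0.51, of which the first was not tested and the others were not called.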

How the data were processed

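The data were gene expression values of 4 RNA sequencing libraries of mouse subcutaneous white fat, grouped by their titles. Per the labels' protocols, Trizol-extracted total RNA went into a strand-keeping (directional) NEBNext library kit. Per the file headers, the authors deposited gene-level FPKM values. The submitters' processing notes name mm10 as the build, Cufflinks 2.1.1, TopHat2 2.0.11 and TopHat; no source used here gives their settings, the annotation or whether strand was used. FPKM holds no counts, so no count test was used, and a few abundant transcripts can lower all other values.

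Here, log2(FPKM + 1) was compared with limma 3.58.1 in R 4.3.3 (two-sided, eBayes with a trend) for the 12345 rows whose 4-library mean reached 1 FPKM. P-values were adjusted over these rows by Benjamini-Hochberg, with a threshold of 0.05. Residual degrees of freedom were 2, and 5.29 with those shared over genes. The step was tested on simulated data. P-values set the difference between groups against the spread between pools, with each gene's variance moderated by that of the other genes. Alternatives were other pseudocounts, filters and scalings, no trend, a replicate block and each library left out.

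The members, gene lists and tests were chosen with earlier results of these data known. The text names the 10 genes, every other family gene past the filter, up to 4 genes per pathway list with the smallest p, and 4 genes of most similar profile; 1 gene this rule covers is not reported here. Coordinates and untranslated regions come from GENCODE M21 (GRCm38), where 9 of 10 identifiers matched by symbol. Promoter and miRNA sequences come from RefSeq (GRCm38.p6).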

Additional observations from a re-analysis of the deposited data

How the results depend on the processing

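No studied gene was called under any of the 13 alternatives run, and the smallest adjusted p among them ranged from 0.147 (without control 1) to 0.626 (without inhibitor 1). An unadjusted p under 0.05 was given to 3 of them without control 1 (Pde3b, Pde4b and Pde1b), and to Pde7a without inhibitor 2 and with a replicate block. The sign of Pde4a turned to -0.095, -0.083 and -0.038 under quantile normalization, upper quartile scaling and FPKM rescaled without mitochondrial DNA genes, and ranged from -0.12 to 0.13 with a library left out. Pde4d turned to -0.044 and -0.042 under the first 2, and ranged from -0.16 to 0.26 with a library left out. Pde2a ranged from -0.29 to 0.069, the highest without control 1, and Pde3b from -0.30 to 0.11, the highest without control 2. The cause of these turns was not tested. Over all genes, 397 were called higher and 33 lower. The counts were 122 and 10 with no filter, where more genes were tested, and 215 and 11 with no trend. Lower calls were 92 under quantile normalization (326 higher), 55 with upper quartile scaling and 54 without mitochondrial DNA genes, and the cause was not tested. With a library left out, higher calls ranged from 0 to 687 and lower calls from 0 to 98. The 0 came without inhibitor 1 or inhibitor 2, where the lone library is assumed to vary like the controls. The replicate numbers share only a number: differences between libraries 1 and 2 correlated at -0.01 between groups, across genes. The fit with the replicate block called 333 higher and 21 lower, and Adcy3 and Arrb2 had adjusted p of 0.0514 and 0.0710. The 2 libraries per group limit what could be called.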
